A study of Medicago truncatula with 48 samples.

Results

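The embryo of Medicago truncatula A17 was followed from stage S2 to stage S3 under heat stress, in 6 of the 48 RNA-seq libraries of the series. The 3 libraries of S3 (22 days after pollination, DAP) were compared with the 3 libraries of S2 (17 DAP), and all 6 came from plants moved at flowering to a room with 26 °C days. Libraries were taken by their labels alone, and each was made from a pool of at least 50 dissected embryos. The libraries set beside them were embryo at S4 and S1 under heat stress (28 and 14 DAP, 3 libraries each), endosperm at S3 and S2 under heat stress (22 and 17 DAP, 2 libraries each), and embryo at S3 and S2 at standard temperature (20 °C days, 36 and 26 DAP, 3 libraries each). Embryo at S4 and S1 of 20 °C (44 and 17 DAP, 3 libraries each) gave levels. These libraries also entered the fit of all embryo libraries, and so its filter, scaling and spread. Seed coat at S1 and S2 of both temperatures (2 libraries each) gave levels, and its S2 libraries of 20 °C also set the seed coat list below. The other endosperm groups (2 libraries each) entered the fits that include endosperm. They were S1 and S4 under heat stress (14 and 28 DAP) and S1, S2, S3 and S4 at 20 °C (17, 26, 36 and 44 DAP). Endosperm at S2 and S3 of 20 °C also served to set the tissue lists below. All plants are of 1 genotype, A17, the reference line of this legume. The step took 5 days at 26 °C and 10 days at 20 °C, so temperature and age cannot be told apart in any difference between them. The sources give different night temperatures for the heated plants.

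In a legume seed the embryo is the storage organ. During filling its cotyledons make storage proteins from a small number of very abundant mRNAs and gain desiccation tolerance, the ability to survive drying. Later in maturation filling ends, water is lost, and the embryo gains longevity, the ability to stay alive in the dry state, with protective proteins and sugars building up. By the study's definition S2 lies in filling, after desiccation tolerance is gained, and S3 lies at the end of filling, when longevity begins to be gained. The deposited table gives each transcript an identifier that holds its chromosome and no gene name, and 0 of the 44473 identifiers matched the gene table used here. Transcripts are therefore described by group, by rank and by genome, and 4 are given by identifier.

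The S3 libraries held 18263132, 18116732 and 17975202 estimated counts, and the S2 libraries 18429950, 18601557 and 18653182. Replicates of S2 were close to each other, with a median SD of log2 CPM (library counts rescaled to a common total) of 0.151, against 0.176 in S3. Replicate 1 of S3 stood slightly apart from its replicates 2 and 3, with a chi-square of the counts per degree of freedom of 9.05 and 10.5, against 3.56 between those 2. Within S2 this statistic was between 1.6 and 1.83. It is near 1 for counting error alone, so no pair was taken for copies of 1 library. Nothing in the labels says that the pools came from separate plants, so the p-values measure only the spread between these pools.

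RNA of the neighbouring tissues was traced with lists set from 20 °C libraries alone. The seed coat list held 307 transcripts with at least 20 CPM in each S2 seed coat library and at least 50 times less in every S2 and S3 library of embryo and endosperm. It summed to between 108 and 130 CPM in the S3 libraries and between 356 and 391 CPM in the S2 libraries, against at least 218000 CPM in seed coat itself. The level in the S3 embryo was 0.0446% to 0.0538% of that in seed coat at S2 of heat stress, and in the S2 embryo it was 0.147% to 0.161%. The endosperm list, 159 transcripts set in the same way against embryo, summed to between 77.7 and 104 CPM at S3 and between 125 and 139 CPM at S2, against at least 74200 CPM in endosperm. Both lists were small beside their own tissue in all 6 libraries, and both sums were lower at S3 with no overlap between the groups. For endosperm this rested on 1 transcript, MtrunA17_Chr3g0144831, which is on both lists: without it, a choice made after the data were seen, the endosperm sums were 99.6, 83.8 and 76.8 CPM at S3 and 86.3, 83.2 and 87.2 CPM at S2, which overlapped. The seed coat sums without it were 107 to 126 CPM at S3 and 314 to 339 CPM at S2, which did not. In such bulk samples fewer cells of a type and less RNA per cell cannot be told apart. A list of embryo transcripts by the same rule had 0 members, so the label was checked only by the low level of the other tissues.

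**Figure D1:**
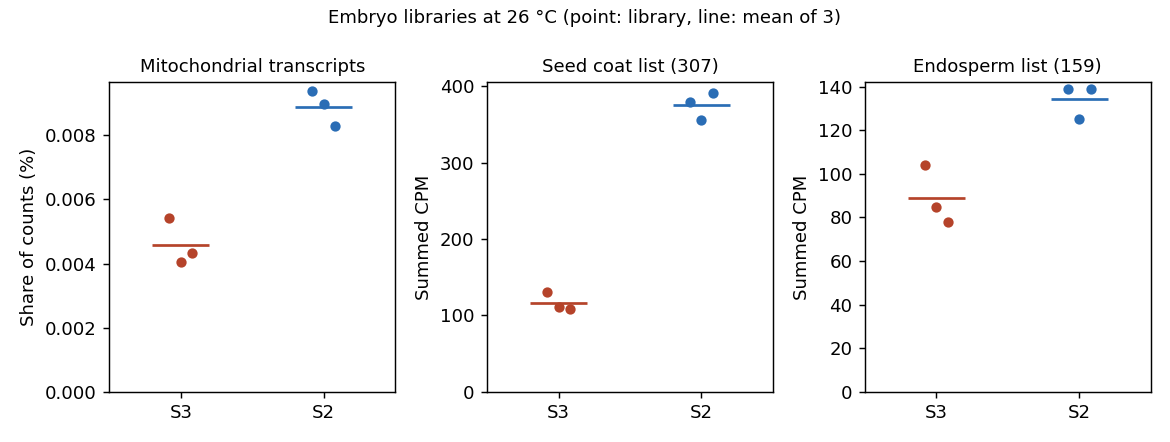
Points are the 6 embryo libraries at 26 °C and lines are means of 3. The panels show the share of counts from mitochondrial transcripts (%) and the summed CPM of the seed coat and endosperm lists, each with S3 on the left and S2 on the right. In every panel the 3 libraries of S3 lie below the 3 of S2, which for the endosperm list rests on MtrunA17_Chr3g0144831.

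The first difference between the stages was in how the counts were shared out. The 10 most abundant transcripts held 46.7%, 49.8% and 48.8% of the counts at S3, against 58.2%, 59.1% and 58.7% at S2. The means were 48.4% ± 1.56 at S3 and 58.7% ± 0.446 at S2 (SD, n = 3 each), and they differed by -10.3 percentage points (two-sided exact permutation test, p = 0.1). No smaller p can be had from groups of 3. At S3 it took 14, 11 and 11 transcripts to reach 50% of a library, against 6 in each S2 library. The single most abundant transcript did not show this, with 12.2%, 13.0% and 12.7% of the counts at S3 and 12.5%, 12.8% and 12.6% at S2, which overlapped. Between a library of S3 and one of S2, between 24.2% and 25.7% of the counts lay on other transcripts (9 pairs, median 24.8%), against at most 5.31% between replicates of S3 and at most 1.67% between replicates of S2.

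**Figure D2:**
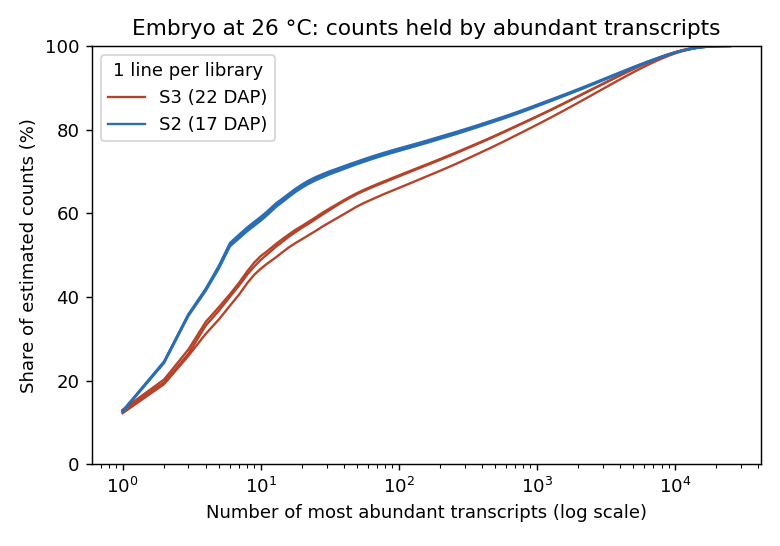
The share of estimated counts (%) held by the most abundant transcripts of each library, against their number on a log axis, with 1 line per library. All S3 lines lie below all S2 lines from 2 to 100 transcripts, and at 10 transcripts they stand between 46.7% and 49.8%, against 58.2% to 59.1% at S2.

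The leading transcripts changed unequally. Of the 10 most abundant at S2, 9 were also among the 10 most abundant at S3, and together those 10 held 45.7% of the counts at S3 and 58.7% at S2. The transcripts of rank 1, 5 and 6 at S2 were called lower, with log2 fold changes of -1.03, -1.23 and -1.05 (edgeR, adjusted p = 0.00895, 0.00153 and 0.00439). Rank 3 and rank 10, with log2 fold changes of -0.87 and -0.71, did not pass the threshold of 0.01 (edgeR, adjusted p = 0.0239 and 0.058). The transcript of rank 2 at S2 was of rank 1 at S3, with 12.7% of the counts at S3 and 11.8% at S2. Rank 4 was the same at both stages, with 6.17% of the counts at S3 and 5.99% at S2. The log2 fold changes of ranks 2, 4, 7 and 9 of S2 lay between -0.17 and -0.01, and rank 8 had 0.67 (edgeR, adjusted p = 0.0385), and none of these 5 passed the test. Among the 100 most abundant at S3, 53 were called higher and 15 lower, and among the 100 most abundant at S2, 22 were called higher and 38 lower, with 68 transcripts on both lists. Each list was chosen by the level in 1 of the compared groups, so these counts only describe it.

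Across the transcriptome the step changed both ways in near-equal number. Of 21992 transcripts tested, 8992 (40.9%) passed an adjusted p of 0.01 (edgeR's quasi-likelihood test, Benjamini-Hochberg). Of these, 4490 were higher at S3 (20.4%) and 4502 were lower (20.5%). Among the called transcripts the falls were larger, with a median log2 fold change of -1.41 among those that fell and of 1.01 among those that rose. The 2 sets differed in abundance, as given below, and these medians were not taken on other scalings. At least a 2-fold change was found for 2272 higher and 3095 lower transcripts, and at least 4-fold for 853 higher and 1337 lower. At 16-fold and above the order turned, with 272 higher and 116 lower. By a strict cutoff, 6 transcripts had at most 3 counts over the S2 libraries and a mean of at least 10 CPM at S3. The opposite pattern was found for 1. That all 7 were called follows from this choice, and near-silent transcripts with more counts are not included.

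The count was stable to the library left out and the split depended on the scaling. Leaving out any 1 of the 6 libraries gave between 7550 and 7926 called transcripts, with 49.7% to 51.6% higher. A fit of the 6 libraries alone called 10465, of which 8341 were also called in the fit of all embryo libraries. By library size only, in place of TMM, which scales libraries on the assumption that most transcripts do not change, 8766 were called and 62.8% of them were higher, against 49.9% with TMM. Over all transcripts the median log2 fold change was then 0.14, against -0.04 with TMM, and directions are relative to these medians.

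**Figure D3:**
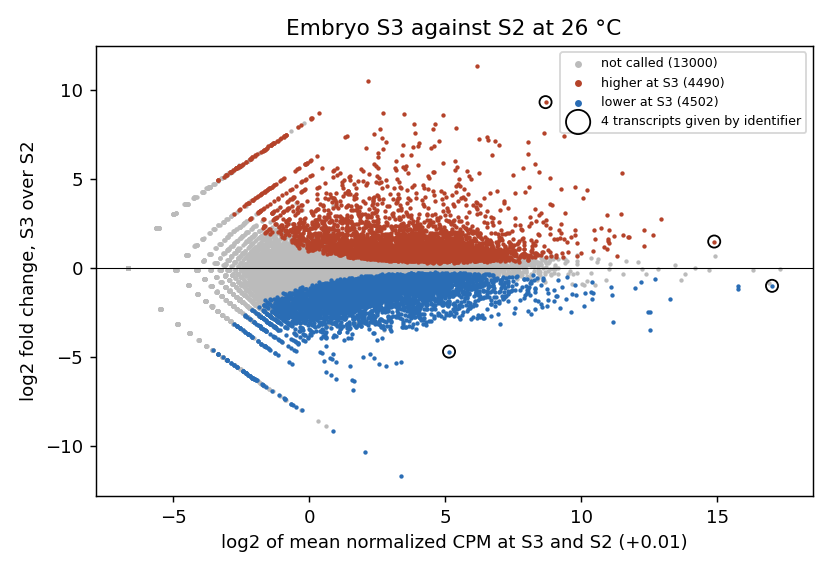
Each point is 1 of 21992 transcripts, with its log2 fold change of S3 over S2 against the log2 of its mean normalized CPM in these groups. Red points (4490) were called higher at S3 and blue points (4502) lower, grey points were not called, and open circles mark the 4 transcripts given by identifier.

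The transcripts that rose were more abundant than those that fell. Over the 6 libraries their median of mean CPM was 9.44, against 3.88 for those that fell and 2.26 for those not called. Tested transcripts were split by mean CPM into 4 bins of 5498. In the highest bin (above 11.7 CPM) 1967 rose and 1108 fell, and in the lowest (up to 0.862 CPM) 339 rose and 788 fell. The lowest bin reaches down to 0 CPM, since the filter on low counts ran over all embryo groups. The median log2 fold change was 0.19 in the highest bin and -0.54 in the lowest, against -0.04 over all transcripts. By library size only these were 0.37 and -0.35. At 20 °C the order of the same bins was the reverse, with -0.12 in the highest and 0.1 in the lowest. By library size only the 20 °C medians were 0.9 and 1.15. In endosperm under heat stress the bins had 0.18 and -0.16, or -0.16 and -0.49 by library size only. In the 6 embryo libraries fewer transcripts were also detected at 1 count or more, with 24612, 23605 and 23771 at S3 and 24954, 24800 and 24921 at S2. These did not overlap (exact two-sided permutation p = 0.1, the smallest possible). The S3 libraries also held fewer counts, 17975202 to 18263132 against 18429950 to 18653182 at S2. Detection at equal depth was not computed. Of the 307 transcripts of the seed coat list, 112 to 150 were above 0 at S3 and 232 to 245 at S2. The part of seed coat RNA in the number detected was not tested. The called risers took 28.0%, 27.1% and 27.8% of the counts at S3, against 9.1%, 8.97% and 9.11% at S2, and the called fallers 19.7%, 18.4% and 18.0% at S3, against 37.4%, 37.7% and 37.4% at S2, values whose direction follows from the calls.

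Transcript length went with the direction in part. In the longest of 4 length bins (2483 bases and more) 993 rose and 1384 fell of 5494, and in the shortest (up to 1200 bases) 987 rose and 785 fell of 5499. The median log2 fold change was -0.15 in the longest bin and 0.01 in the shortest. Under library size only these medians were 0.03 and 0.2, so that the sign for long transcripts turned with the scaling while their place below the short ones did not. At 20 °C the order was the reverse, with 0.22 in the longest bin and -0.18 in the shortest, or 1.3 and 0.83 by library size only. The cause was not tested. Chromosomes differed little: between 18.5% (chromosome 6) and 21.7% (chromosome 5) of the tested transcripts of each of the 8 chromosomes rose, and between 18.8% (chromosome 5) and 21.1% (chromosome 7) fell. Of 12355 pairs of transcripts whose identifiers follow each other, both rose in 712 and both fell in 651. In 964 pairs they changed in opposite directions. Over all tested transcripts 20.4% rose and 20.5% fell, and opposite pairs can arise in either order. The numbers that unrelated transcripts would give were not computed, so these counts only describe the pairs.

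The transcripts of the organelle genomes were read as groups of their own. Plastids and mitochondria of plants keep small genomes of their own, which encode parts of the photosynthetic and respiratory machinery, and their mRNAs mostly lack the long poly(A) tail by which the study selected mRNA, so that their share in such libraries need not follow their share in the cell. Of 72 mitochondrial transcripts 36 passed the filter on low counts over all embryo groups, and 0 rose and 21 fell (58.3%, against 20.5% of all transcripts tested), with a median log2 fold change of -1.61. By library size only 1 was higher and 18 were lower, and their median was -1.42. The filter could be met in 1 group alone, and the mitochondrial share was higher at S1 and S2 of heat stress than at S3. That could favour falls among the 36, so their 58.3% only describes them. The summed share of all 72 in the counts was small, 0.00541%, 0.00404% and 0.00432% at S3 and 0.00939%, 0.00899% and 0.00828% at S2. All S3 libraries were below all S2 libraries, with means of 0.00459% ± 0.000724 at S3 and 0.00889% ± 0.000562 at S2 (SD, n = 3 each, exact two-sided permutation p = 0.1, the smallest possible). Over the 4 stages at 26 °C the median share was 0.0178% at S1, 0.00899% at S2, 0.00432% at S3 and 0.00437% at S4. In the 20 °C step 0 mitochondrial transcripts rose and 7 fell, with a median log2 fold change of -0.88 that became 0.18 by library size only, and the change differed between temperatures for 2 of the 36.

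Of 85 plastid transcripts 82 were tested, and 4 rose (4.88%) and 8 fell (9.76%), both below the shares over all transcripts. The balance turned with the scaling: by library size only 17 rose and 5 fell. Their summed share was 0.345%, 0.282% and 0.395% at S3 and 0.293%, 0.268% and 0.23% at S2, and the groups overlapped (exact two-sided permutation p = 0.2). The median log2 fold change was 0.29 at 26 °C, where 0.47 was found by library size only. At 20 °C it was -0.84, with 0 higher and 31 lower, but 0.08 by library size only, with 9 higher and 3 lower. The change differed between temperatures for 11 plastid transcripts. Over the 82 tested, the log2 fold changes at 26 °C ranged from -11.7 to 7.02. Salmon divides reads between near-identical copies. Whether this touched the plastid values was not tested, so single plastid values are uncertain.

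The extremes of the called transcripts show the range of the changes. They were picked by rule from the 3383 called transcripts with at least 3 counts in each of the 6 libraries, a mean of at least 10 CPM and no overlap between the groups, as the largest fold and the largest CPM difference in each direction. The lack of overlap is part of the choice and was met by 31.8% (S3 above S2) and 34.2% (S3 below S2) of all transcripts tested.

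MtrunA17_Chr2g0317051, on chromosome 2 and 557 bases long, had the largest rise by fold among these. It had 774, 837 and 854 normalized CPM at S3, against 1.04, 1.53 and 1.35 at S2, or 12309, 11798 and 12061 counts against 14, 20 and 18. It was thus close to silent in all libraries of S2 and of rank 87 in mean abundance at S3, against rank 16092 at S2. The log2 fold change was 9.29 (standard error 0.31; edgeR, adjusted p = 1.066e-15), a 626-fold rise. Over the 4 stages under heat stress its mean was 0.486 at S1, 1.31 at S2, 822 at S3 and 922 at S4, with S3 libraries in the range of S4 (764 to 1020). This place beside S4 depended on the scaling, since by library size only the libraries had 674, 651 and 671 CPM at S3 and 1280, 1210 and 1210 CPM at S4. At 20 °C the libraries of S3 had 186 to 301 normalized CPM and those of S2 0.176 to 0.96, with 1130 to 1410 at S4. The log2 fold change at 20 °C was 8.61, and the difference between temperatures of 0.68 did not pass the test (standard error 0.54, adjusted p = 0.3558 by edgeR). In endosperm it also rose at this step under heat stress, with a log2 fold change of 7.73 (adjusted p = 7.053e-10 by edgeR), and in the seed coat libraries it was at or below 0.0928 CPM.

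MtrunA17_Chr7g0273041, on chromosome 7 and 1481 bases long, had the largest gain in CPM among these. It had 40414, 46145 and 46225 normalized CPM at S3 and 15541, 16397 and 16351 at S2, and so rose 2.75-fold (log2 fold change 1.46, standard error 0.27, adjusted p = 0.0001205 by edgeR). Its share of the counts was 3.58% at S3 and 1.15% at S2, and its rank was 5 at S3 and 12 at S2. The level was highest at S3: the mean over the 4 stages under heat stress was 1390, 16100, 44300 and 16100 normalized CPM at S1, S2, S3 and S4, and S3 lay above the range of S4 (10500 to 19000). By library size only S3 had 35200 to 36300 CPM, S2 11300 to 11700 and S4 16600 to 23900, so that S3 was again the highest but S4 lay above S2. At 20 °C the S3 libraries had 23700, 41600 and 19600 normalized CPM, with replicate 2 in the range of heat stress. The change of 0.69 did not pass the test (adjusted p = 0.03169 by edgeR). By library size only these S3 libraries had 32300, 37500 and 29500 CPM. Those of S2 at 20 °C had 8420, 11500 and 11600 CPM, with no overlap, so the size of this change depended on the scaling. The difference between temperatures was 0.77 and did not pass the test either (standard error 0.38; edgeR, adjusted p = 0.1316).

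MtrunA17_Chr1g0185811, on chromosome 1 and 2021 bases long, had the largest loss in CPM among these. It was the most abundant transcript of S2 and of rank 2 at S3, with 79986, 92343 and 87074 normalized CPM at S3 and 172290, 181180 and 176200 at S2. The log2 fold change was -1.03 (standard error 0.32), and its adjusted p of 0.008952 by edgeR lay just inside the threshold of 0.01. The call was lost when any 1 of the 6 libraries was left out (adjusted p between 0.0211 and 0.0366 by edgeR), although the fold change stayed between -1.08 and -0.97, and a fit of the 6 libraries alone gave an adjusted p of 3.32e-08. The fit of all embryo libraries takes its spread also from groups that vary more, such as S3 at 20 °C, where its replicates had 47600, 86700 and 33300 normalized CPM. At 20 °C this transcript fell by 2.14 on the log2 scale (adjusted p = 8.624e-06 by edgeR). By library size only it had 64900, 78200 and 50300 CPM at S3 and 151000, 145000 and 146000 at S2 of 20 °C. At 26 °C it had 69600, 71800 and 68400 CPM at S3 and 125000, 128000 and 126000 at S2 on that scale. The size of the fall at 20 °C thus depended on the scaling. The difference between temperatures of 1.11 did not pass the test (standard error 0.44; edgeR, adjusted p = 0.06637).

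MtrunA17_Chr3g0144831, on chromosome 3 and 612 bases long, had the largest fall by fold among these. It had 5.10, 1.28 and 1.13 normalized CPM at S3, against 71.8, 59.1 and 73.0 at S2, with replicate 1 the highest of S3 and still far below S2. The log2 fold change was -4.72 (standard error 0.57; edgeR, adjusted p = 5.067e-07). It was -5.81 without replicate 1 of S3 and between -4.81 and -4.38 without any 1 of the other libraries. In seed coat it had between 24000 and 27300 CPM at S2 of heat stress, beside which its level in the S2 embryo was small. By library size it had 52.3, 41.6 and 52.1 CPM in the S2 embryo, and it is itself a member of the seed coat list. That list as a whole stood in these libraries at 0.147% to 0.161% of its level in seed coat. Of the 306 other members 164 were tested in embryo, and 63 fell (38.4%, against 20.5% of all transcripts tested) and 3 rose, with a median log2 fold change of -2.66. Members could pass the filter on low counts in 1 group alone. Among the embryo groups in which the list was read, its sum was highest at S1 and S2 of heat stress. That could favour falls, so the 38.4% only describes these members. An S2 level of at most 3 times that which the seed coat list gives for a transcript of the same level in seed coat was found for 595 of all transcripts tested (2.71%), for 109 of the risers (2.43%) and for 77 of the fallers (1.71%). Among the 116 that fell at least 16-fold it was found for 41 (35.3%). With all transcripts at such levels left out, 4381 higher and 4425 lower transcripts remained. The part of seed coat RNA in the fall of MtrunA17_Chr3g0144831 and in the other falls was not tested.

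**Figure D4:**
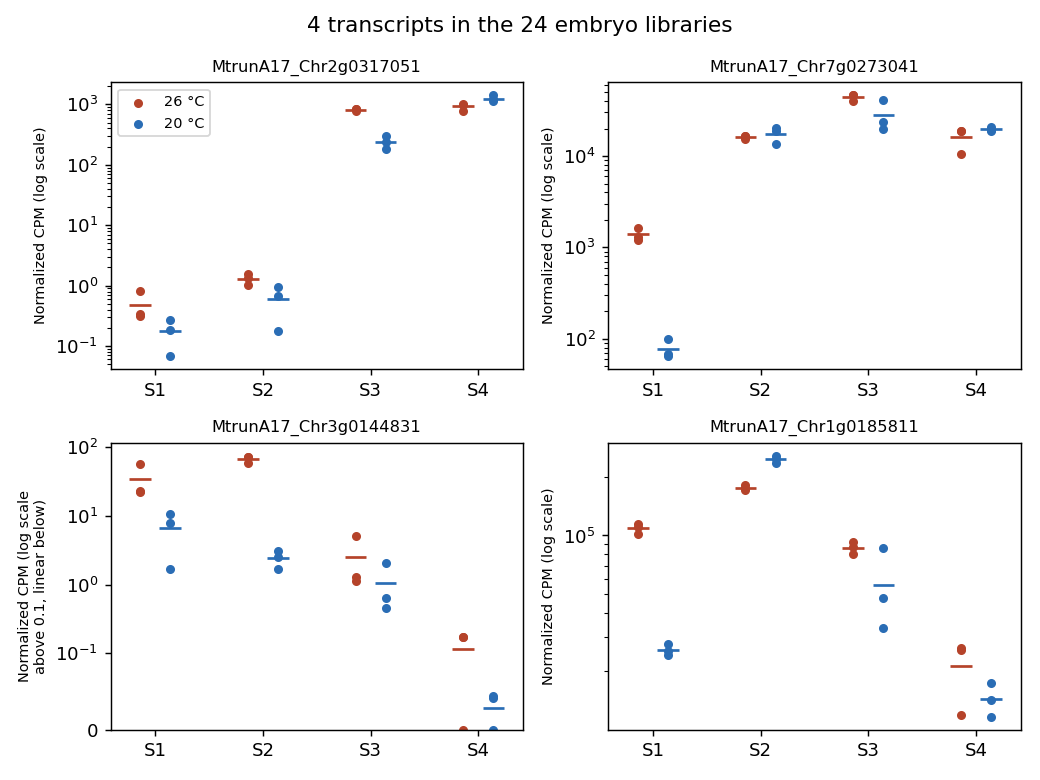
Normalized CPM of the 4 transcripts in the 24 embryo libraries by stage, with 26 °C (red) to the left of 20 °C (blue), points for libraries and lines for means of 3, on log axes (linear below 0.1 for MtrunA17_Chr3g0144831, which had 0 in single S4 libraries). MtrunA17_Chr2g0317051 was between 774 and 854 at S3 and between 1.04 and 1.53 at S2 of heat stress, and MtrunA17_Chr7g0273041 was highest at S3.

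The same transcripts were then read in groups other than the 2 compared. The embryo libraries among these entered the same fit, and so its filter, scaling and spread, while endosperm was fitted apart. Between S4 and S1 under heat stress, the ends of the time course, 15644 of 21992 transcripts (71.1%) were called by edgeR, 34.9% higher at S4 and 36.2% lower. The endosperm list summed to 608 to 955 CPM at S4 and 110 to 157 CPM at S1, and the seed coat list to 170 to 205 CPM at S4 and 353 to 846 CPM at S1, and their part in these calls was not tested. Of the 4490 risers of the S2 to S3 step, 85.5% were called higher at S4 than at S1 and 2.56% lower. Of the 4502 fallers, 91.5% were called lower and 0.733% higher. With both steps called by library size only, these shares were 87.3% of 5509 risers and 92.4% of 3257 fallers, beside 44.2% higher and 27.4% lower over all transcripts. The risers had a median log2 fold change of 1.58 between S4 and S1 and the fallers of -2.87. There were 115 risers that were lower at S4 than at S1, and 33 fallers that were higher.

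At 20 °C the S2 to S3 step called 10947 transcripts (49.8%), 23.7% higher at S3 and 26.1% lower. Its groups hold no library of the step at 26 °C, but both steps came from the same fit. Of the risers under heat stress 59.4% were also called higher at 20 °C and 0.579% lower, and of the fallers 78.7% were called lower and 0.622% higher. The scaling matters here: by library size only 86.6% of the calls at 20 °C were higher, against 47.6% with TMM, and over all transcripts the median change (log2) was 1.02, against -0.02. Of the 5509 risers called on that scale at 26 °C, 95.6% were higher at 20 °C beside 60.5% of all transcripts, and of the 3257 fallers 52.9% were lower beside 9.32% of all. Across the 21992 transcripts the log2 fold changes at 26 °C and 20 °C had a Pearson correlation of 0.583, a description over transcripts that share libraries and are not independent. The fallers had a median log2 fold change of -1.41 at 26 °C and -1.46 at 20 °C, and the risers of 1.01 and 0.68.

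**Figure D5:**
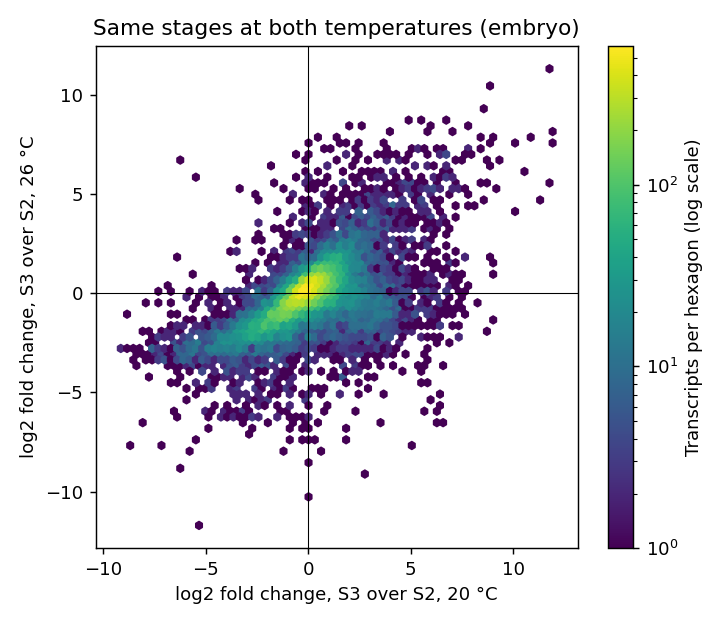
The log2 fold change of S3 over S2 at 26 °C (vertical) against that at 20 °C (horizontal) for 21992 embryo transcripts, with colour for the number of transcripts per hexagon on a log scale. The dense part rises from lower left to upper right, and the 549 transcripts that rose at 20 °C and were not called at 26 °C, with a different change, lie to the right of 0.

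Whether the step itself differed between the temperatures was tested as an interaction. It called 2184 transcripts (9.93%) by edgeR, 1366 changed more upward or less downward under heat stress (6.21%) and 818 the other way (3.72%). This number rested on single libraries and settings: it was 6996 without replicate 2 of S3 at 20 °C, 846 and 836 without its replicate 1 or 3, 1476 without replicate 1 of S3 at 26 °C, and between 997 and 1253 without any of the other libraries. It was 522 in a fit of only the 12 libraries of S2 and S3, and 135 with replicates 1 and 3 of S3 at 20 °C both left out, a choice made after the data were seen. By library size only 6960 were called and 3.45% of them were more upward under heat stress, against 62.5% with TMM.

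Among the 2184, a set of 479 transcripts fell at both temperatures and fell less under heat stress, with medians of 5.37, 3.49 and 3.39 CPM at S3 and 14.6, 13.9 and 13.9 at S2 under heat stress, and of 1.6, 1.87 and 2.16 at S3 and 15.3, 13.7 and 11.9 at S2 at 20 °C, all by library size. All S3 libraries of heat stress, replicate 1 the most, had a higher median than those of 20 °C, as a description of transcripts chosen by this difference. A further 549 transcripts rose at 20 °C and were not called at 26 °C. Their median CPM was 12.8 and 14.8 in replicates 1 and 3 of S3 at 20 °C and 1.54 in replicate 2, close to the 1.99, 1.04 and 1.34 of S3 under heat stress, so that the higher median was that of 2 libraries. A set of 352 rose under heat stress and was not called at 20 °C. By library size its median CPM was 24.0, 22.6 and 22.3 at S3 and 11.2, 11.0 and 11.2 at S2 under heat stress, and 22.3, 21.0 and 23.1 at S3 and 10.6, 11.9 and 10.9 at S2 at 20 °C, so that on this scale the medians at both temperatures were close. Opposite calls were few, with 26 transcripts higher at 26 °C and lower at 20 °C, and 28 lower at 26 °C and higher at 20 °C.

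Endosperm, the other product of fertilization, was sampled from the same stages of heat stress. Its S2 to S3 step called 9708 of 26400 transcripts (36.8%), 19.6% higher at S3 and 17.1% lower, and 53.4% of the calls were higher, or 25% by library size only. Of the embryo risers tested in endosperm (4416), 60.4% were called higher there and 2.22% lower, and of the fallers (4229), 45.2% were called lower and 4.61% higher, beside 23.0% higher and 17.5% lower among the 20810 transcripts tested in both. With both steps called by library size only, 32.5% of the risers were higher in endosperm beside 12.3% of all, and 66.5% of the fallers were lower beside 35.1%. Tested directly in 1 fit of both tissues, the step differed between embryo and endosperm for 2833 of 27952 transcripts (10.1%), with 5.21% changed more upward and 4.93% more downward in embryo. By library size only 5171 were called and 89.5% of them were more upward in embryo, against 51.4% with TMM. The mitochondrial transcripts, with a median log2 fold change of -1.61 in embryo, had one of -0.35 in endosperm, or -1.42 and -0.68 by library size only. The plastid transcripts had medians of 0.29 in embryo and -0.16 in endosperm, or 0.47 and -0.5 by library size only.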

How the data were processed

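Libraries were single-end reads of 50 bases on the BGISEQ-500. RNA was enriched by rRNA depletion and oligo dT selection. The authors filtered adapters and low-quality reads, quantified them with Salmon (quasi-mapping, sequence bias correction) on version 5 of the A17 transcriptome, and deposited estimated counts per transcript, with 29.6% of the nonzero values not whole (tolerance 0.001), without normalization and without pooling. Length and effective length in bases stand beside them. Here estimated counts were rounded for tests. Transcripts passing filterByExpr (minimum count 10, minimum total 15) were scaled by TMM and tested with edgeR 4.0.16 in R 4.3.3 (limma 3.58.1 loaded) on 24 embryo, 16 endosperm or all 40 libraries, with 1 mean per group, Benjamini-Hochberg adjustment and a threshold of 0.01 as in the study's methods. Standard errors are from the F statistic. DESeq2 1.42.0 served as an alternative, since ImpulseDE2 was not run. Log2 CPM used a prior count of 2. Shares and list sums used unrounded counts. The alternatives were other scalings, filters, thresholds and sample sets, a replicate block, and leaving out libraries.

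The rule for transcripts given by identifier was the largest fold and the largest CPM difference in each direction among called, separated transcripts. The members and lists were chosen with earlier results of these data known. Lists by gene product could not be run without gene names. On simulated counts for S3 against S2 at 26 °C (20621 transcripts, 200 changed) 87% of 4-fold and 62% of 2-fold changes were recovered with 0 false calls, and for the difference between temperatures 77% and 30%. In the data 8992 of 21992 transcripts were called for the step at 26 °C, far more than the 200 changed in those counts. False calls at such a number of changes, or from the choice of scaling, were not tested. The precision rests on 17975202 to 18653182 counts a library, and reads were not tagged by molecule, so PCR copies are counted as reads.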

Additional observations from a re-analysis of the deposited data

Results flagged for a closer look

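The change from S2 to S3 differed between 26 °C and 20 °C for 2184 embryo transcripts by the test of the difference itself, and this number moved with single libraries as given above. Between embryo and endosperm under heat stress it differed for 2833 transcripts. Among the transcripts given by identifier, MtrunA17_Chr3g0144831 fell more in embryo than in endosperm at this step, with a difference of log2 fold changes of -2.93 (standard error 0.70; edgeR, adjusted p = 0.00294), and it was far more abundant in seed coat than in either. The part of seed coat RNA in the embryo values of MtrunA17_Chr3g0144831 was not tested. The groups of 3 libraries are too small to mark single libraries.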

How the results depend on the processing

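The count of called transcripts of the step at 26 °C stayed within 1.5 times the 8992 under other scalings, filters, tests, sample sets and left-out libraries (7550 to 7926), and moved only with a 2-fold minimum, to 5367. That minimum gave 7155 at 20 °C (10947 without it), 4813 in endosperm and 1869 for the difference between tissues. An adjusted p below 0.05 gave 5789 for the difference between temperatures and 4691 for that between tissues. At least 10 counts in every library gave 7190 at 20 °C and 10004 for S4 against S1, where fewer transcripts were tested. DESeq2 gave 3309 for the difference between temperatures, library size only 6960 (5171 between tissues), the 12 libraries of S2 and S3 alone 522, and 2 libraries left out 135. Without 1 library at a time it ranged from 836 to 6996, the 20 °C step from 9173 to 12623, S4 against S1 from 14707 to 15403 and endosperm from 6883 to 7387, where the lone library left is assumed to vary like the other groups. The cause was not tested.

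The fall of the share of the 10 most abundant transcripts was -11.5 percentage points on TPM, and -8.38 and -7.25 for the 50 and 100 most abundant. The mitochondrial share differed by -0.0131 on TPM, and without 1 library the 2 shares kept their sign. The share of the single most abundant transcript differed by 0.0232, by -1.16 on TPM, and by between -0.157 and 0.246 without 1 library, so it has no direction.

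MtrunA17_Chr1g0185811 was not called without the filter (adjusted p = 0.0286 by edgeR) or with a replicate block (0.0111). Samples with the same replicate number did not deviate together (correlations of 0.02, 0.002 and -0.006 between S3 and S2), and the replicate block gave 8770 called transcripts for the step and 1794 for the difference between temperatures. Falls near the filter are limited by depth.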
